A study of Arabidopsis thaliana with 9 samples.

Results

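Glutathione transferases are the enzymes that couple the tripeptide glutathione to reactive or foreign molecules, and some of them reduce peroxides or carry ligands instead. The genes described here are 50 Arabidopsis thaliana loci of 6 classes, chosen by their locus names with earlier results of these data known. The list holds 28 tau loci, 13 phi loci, 3 lambda loci, 3 loci of dehydroascorbate reductases (DHAR), 2 zeta loci and 1 theta locus. Of the 22155 loci in the count table, 46 were members of this list, and GSTF9, GSTL1, DHAR1 and GSTZ1 were not analysed here. Counts were high enough for a test at 33 of the 46.

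Polyadenylated RNA was sequenced from PP2-A5oe, a line that overexpresses PP2-A5, from pp2-a5, a line mutated in that gene, and from the wild type Col-0, with 3 libraries in each group. PP2-A5 encodes a protein with a lectin domain of the phloem protein family. All plants had the control treatment and an age of 3 weeks; the tissue label names the rosette, whereas the extraction protocol speaks of seedlings. The labels do not state the promoter of the overexpression line, the kind of mutation or the number of independent lines. The library names of pp2-a5 begin with SALK. The transcript of PP2-A5 itself was not analysed here. Col-0 was the reference for both lines, so the comparisons against it share their control libraries.

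Plants use tau and phi enzymes, which are large classes specific to plants, to conjugate herbicides and the products of oxidative stress, and several members also serve in the synthesis of sulfur-containing defence compounds such as camalexin and glucosinolates. DHAR enzymes return oxidised ascorbate to its reduced form with glutathione as the donor. Lambda enzymes reduce oxidised flavonols, zeta enzymes act in tyrosine breakdown, and theta enzymes reduce hydroperoxides in peroxisomes.

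Total counts lay between 5408847 and 6196722 per library, and levels are given as CPM, which is counts relative to the scaled library total. Mitochondrial genes took 0.178% of the counts in Col-0 replicate 3 and 0.132% in PP2-A5oe replicate 2, against 0.0741% to 0.0878% in the other 7 libraries. All 4 tested leaf mesophyll markers were abundant, with summed levels of 28765 to 32387 CPM in PP2-A5oe, 27676 to 29128 CPM in pp2-a5 and 34401 to 38447 CPM in Col-0. Only these 4 of the 8 listed mesophyll markers were analysed here. They were called lower (adjusted p under 0.05 in edgeR) in pp2-a5 at 4 of 4 and in PP2-A5oe at 2 of 4. Over all tested loci, 8.47% were called lower in pp2-a5 and 10.5% in PP2-A5oe. Among the 3599 loci of at least 52.8 CPM, these shares were 16.7% and 16.9%. All 8 root markers had counts in each group, and 4 could be tested. The others had few counts over the 3 libraries of a group, from 1 at EXPA7 in Col-0 to 27 at PRX72 in PP2-A5oe. The 4 tested root markers were all higher in PP2-A5oe, and 1 of 4, PRP3, was higher in pp2-a5, where DESeq2 called 0. Over all tested loci, 14.5% were called higher in PP2-A5oe and 12.3% in pp2-a5. The summed level of the 8 root markers was 257 to 303 CPM in PP2-A5oe, 201 to 209 CPM in pp2-a5 and 146 to 191 CPM in Col-0. Without SCR, which is also active in shoots and made up most of that sum, it was 29.4 to 35.6 CPM in PP2-A5oe, 12.2 to 15.7 CPM in pp2-a5 and 9.21 to 9.67 CPM in Col-0. None of 4 tested flower markers was called in either line by edgeR, DESeq2 or limma-voom (1 was higher in PP2-A5oe at an unadjusted p under 0.05), with summed levels of 17.2 to 21.4 CPM in PP2-A5oe, 15.9 to 20.7 CPM in pp2-a5 and 16.1 to 17.1 CPM in Col-0. The seed marker SESA2 had 1 count in PP2-A5oe, 1 in pp2-a5 and 0 in Col-0. The part of such tissue differences in the results on glutathione transferase genes was not tested. In RNA from whole organs, fewer cells of a type and less RNA per cell cannot be told apart.

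The family did not move as a block in either line. The most abundant phi genes were higher in both lines, and 10 of the 14 tau genes called in PP2-A5oe were lower. That majority was lost without Col-0 replicate 3 and PP2-A5oe replicate 2, where 4 tau genes were called lower and 4 higher. In PP2-A5oe against Col-0, 9 of the 33 tested genes were higher and 10 were lower (called at an adjusted p under 0.05 in edgeR's quasi-likelihood test), while 14.5% of all tested loci were called higher, 10.5% lower and 25.0% either way. In pp2-a5 against Col-0, 10 were higher and 7 were lower, against 12.3% of all tested loci called higher, 8.47% lower and 20.8% either way. Tested members had a median level of 52.8 CPM, against 20.0 CPM for all tested loci. Of the 3599 loci at or above the members' median level, 39.2% were called in PP2-A5oe (22.3% higher, 16.9% lower). In pp2-a5, 33.1% of them were called (16.4% higher, 16.7% lower). The median log2 fold change of the tested members was -0.07 in PP2-A5oe and 0.03 in pp2-a5, against -0.02 and -0.01 over all tested loci. Without Col-0 replicate 3 and PP2-A5oe replicate 2, the counts were 10 higher and 4 lower in PP2-A5oe, and 10 higher and 4 lower in pp2-a5. The lower counts also moved with single libraries: 6 instead of 10 were called lower in PP2-A5oe without Col-0 replicate 1, PP2-A5oe replicate 1 or PP2-A5oe replicate 2, and 4 instead of 7 in pp2-a5 without Col-0 replicate 3.

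The values of all 3 PP2-A5oe libraries lay above all 3 of Col-0 for 9 members and below them for 12, and groups did not overlap at 36.8% of all tested loci. In pp2-a5 against Col-0, 11 members lay wholly above and 10 wholly below, with 33.7% of all tested loci not overlapping. Between the lines, PP2-A5oe was called higher than pp2-a5 at 3 members and lower at 9, against 7.21% and 5.45% of all tested loci and 12.7% either way. DESeq2 called 2 members higher and 6 lower. Among loci at or above the members' median level, edgeR called 12.9% higher, 5.75% lower and 18.6% either way between the lines. Here 6 members lay wholly above and 14 wholly below in PP2-A5oe, against 28.4% of all tested loci not overlapping. GSTU13, GSTU17, GSTF2, GSTF3, GSTF7, GSTF8 and GSTF10 were called higher in both lines against Col-0. GSTU1, GSTU3, GSTU7, GSTU19 and GSTU20 were called lower in both lines, and GSTU4 was the 1 member called in opposite directions.

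**Figure D1:**
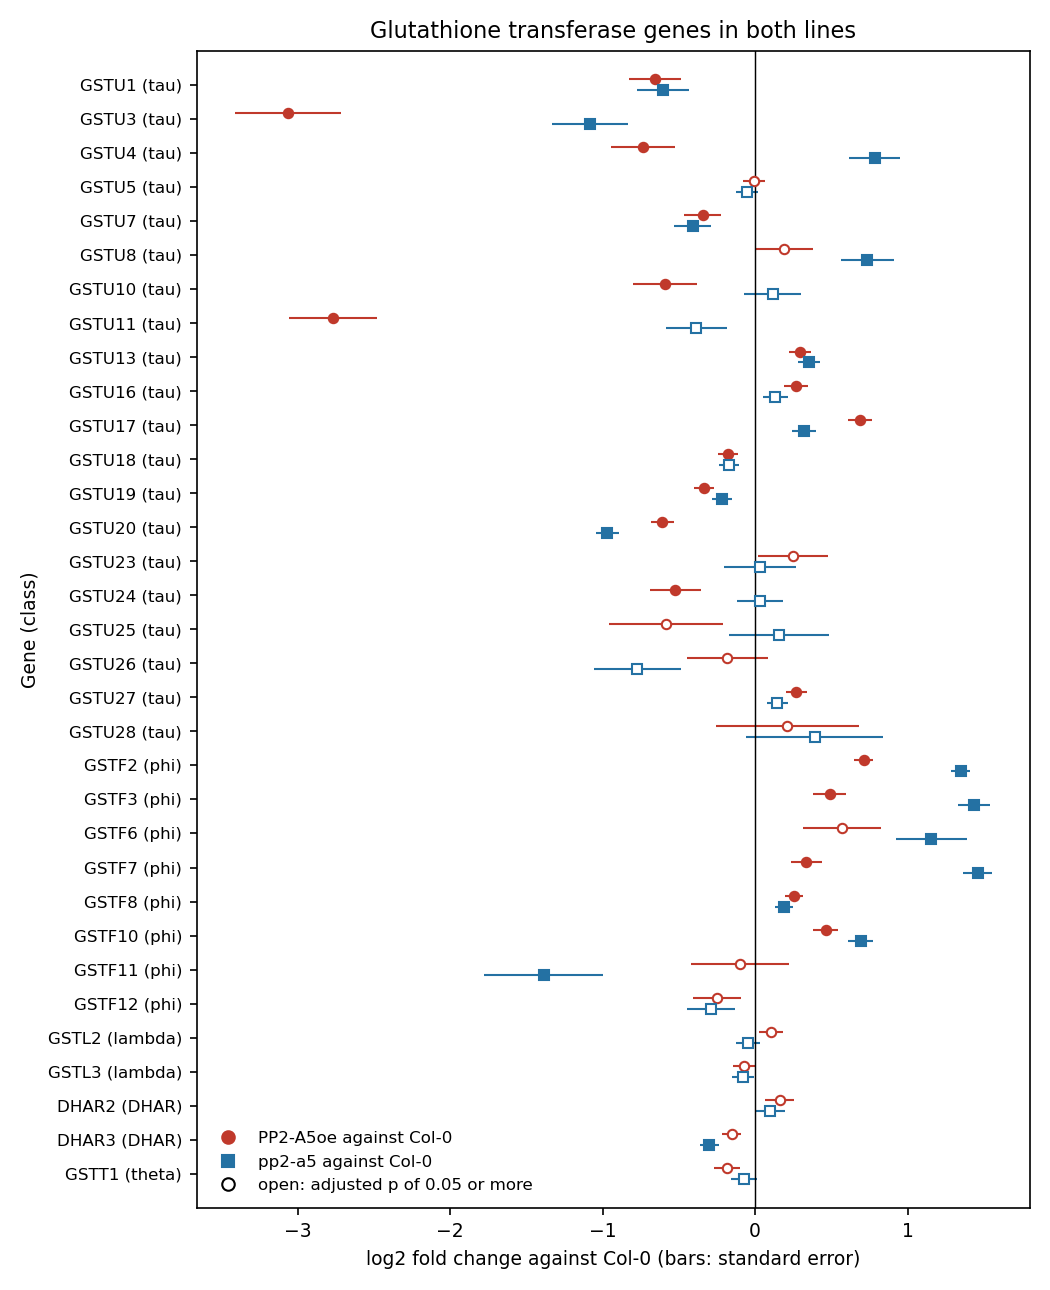
Log2 fold change against Col-0 (x axis) of the 33 tested glutathione transferase genes (rows) in PP2-A5oe (circles) and pp2-a5 (squares), with standard errors as bars and open symbols where the adjusted p was 0.05 or more. The phi genes GSTF2, GSTF3 and GSTF7 stand furthest right in pp2-a5, and GSTU3 and GSTU11 stand furthest left in PP2-A5oe.

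The phi class had the largest summed level of the family in all 3 groups, and its sum was higher in both lines. Its 12 measured loci summed to 2060 ± 74.5 CPM in PP2-A5oe, 2771 ± 128 CPM in pp2-a5 and 1455 ± 70.4 CPM in Col-0 (SD, n = 3 each), which is 1.42 times Col-0 in PP2-A5oe and 1.90 times Col-0 in pp2-a5. Of the 8 tested phi genes, 5 were higher in PP2-A5oe, against 14.5% of all tested loci. In pp2-a5, 6 were higher and 1 lower, against 12.3% and 8.47% of all tested loci. No phi gene was lower in PP2-A5oe by edgeR, DESeq2 or limma-voom, and 0 were lower at an unadjusted p under 0.05 in edgeR. GSTF2 alone supplied 31.4% of the family's CPM in PP2-A5oe, 41.2% in pp2-a5 and 22.5% in Col-0. Without GSTF2, the phi sum was still 1.22 times Col-0 in PP2-A5oe and 1.33 times Col-0 in pp2-a5.

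GSTF2 (AT4G02520), a phi enzyme that binds indole-derived ligands such as camalexin in vitro, is on chromosome 4 (chr4:1110343-1112033, minus strand, TAIR10.1) and had the highest level per exon length of the family, at 767 CPM per kb in PP2-A5oe, 1194 CPM per kb in pp2-a5 and 469 CPM per kb in Col-0. Its levels were 1161, 1160 and 1065 CPM in PP2-A5oe plants, 1851, 1707 and 1712 CPM in pp2-a5 plants, and 668, 664 and 737 CPM in Col-0. The 3 groups did not overlap, with pp2-a5 highest and Col-0 lowest. The log2 fold change against Col-0 was 0.71 ± 0.06 (standard error, as for all fold changes below) in PP2-A5oe (adjusted p = 3.02e-11) and 1.35 ± 0.06 for pp2-a5 (adjusted p = 5.1e-18), and the lines differed by -0.64 ± 0.06 (PP2-A5oe minus pp2-a5, adjusted p = 6.21e-10). GSTF2 overlaps AT4G02510 on the other strand, and the strand setting of the counting is not stated.

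GSTF3 (AT2G02930, chr2:851156-852321) encodes a near copy of GSTF2, with 92.5% identical residues. It had 58.3, 56.2 and 55.5 CPM in PP2-A5oe plants, 119, 104 and 104 CPM in pp2-a5 plants, and 38.4, 32.8 and 50.4 CPM in Col-0. These groups did not overlap either, in the same order as for GSTF2, with a log2 fold change of 0.49 ± 0.11 in PP2-A5oe (adjusted p = 0.000856) and 1.44 ± 0.10 for pp2-a5 (adjusted p = 4.28e-12). The difference between the lines was -0.94 ± 0.10 (adjusted p = 1.42e-08). The pair shares 2.46% of the 50-base windows of GSTF2 and 3.51% of those of GSTF3, so reads from these stretches could have been counted for either gene. Their summed level was 1185 ± 56.4 CPM in PP2-A5oe, 1866 ± 90.7 CPM in pp2-a5 and 730 ± 49.6 CPM in Col-0 (SD, n = 3 each).

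GSTF7 and GSTF6 are neighbours on chromosome 1, and their proteins are 93.3% identical. GSTF6 takes part in camalexin synthesis, where it joins glutathione to an indole intermediate. GSTF7 (AT1G02920, chr1:658578-659980) had 37.6, 41.8 and 40.1 CPM in PP2-A5oe plants, 95.4, 77.4 and 87.5 CPM in pp2-a5 plants, and 30.6, 28.5 and 35.9 CPM in Col-0. All 3 groups stood apart, PP2-A5oe close above Col-0 and pp2-a5 far above both. Against Col-0, the log2 fold change reached 0.34 ± 0.10 in PP2-A5oe (adjusted p = 0.0138) and 1.46 ± 0.09 for pp2-a5 (adjusted p = 3.32e-14), with -1.12 ± 0.09 between the lines (adjusted p = 1.01e-11). The call in PP2-A5oe was lost without Col-0 replicate 1, Col-0 replicate 2 or PP2-A5oe replicate 2, with an adjusted p of at most 0.0845.

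GSTF6 (AT1G02930, chr1:661088-662475) had 6.46, 5.41 and 5.71 CPM in PP2-A5oe plants, 10.4, 9.26 and 6.88 CPM in pp2-a5 plants, and 3.55, 2.51 and 5.98 CPM in Col-0. The pp2-a5 libraries lay above both other groups, and the range of PP2-A5oe overlapped that of Col-0. Its log2 fold change reached 1.16 ± 0.23 in pp2-a5 (adjusted p = 0.000293) and 0.57 ± 0.26 in PP2-A5oe, which did not pass (adjusted p = 0.103). Without Col-0 replicate 3 GSTF6 was called in PP2-A5oe, at 0.95. GSTF6 has 2 annotated transcripts and 2 entries in the table, which were summed. About 9.03% of its 50-base windows also occur in GSTF7, and the summed level of the pair was 45.7 ± 1.57 CPM in PP2-A5oe, 95.6 ± 9.61 CPM in pp2-a5 and 35.7 ± 5.58 CPM in Col-0 (SD, n = 3 each).

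GSTF8 (AT2G47730, chr2:19556326-19559485), whose promoter is a widely used reporter of early stress responses, was the second most abundant member per exon length. It had 737, 751 and 703 CPM in PP2-A5oe plants, 724, 688 and 684 CPM in pp2-a5 plants, and 624, 593 and 621 CPM in Col-0. Both lines lay above Col-0 without overlap and overlapped each other. The rises were small, at 0.25 ± 0.06 in PP2-A5oe (adjusted p = 0.00122) and 0.19 ± 0.06 for pp2-a5 (adjusted p = 0.0187). The call in pp2-a5 was lost with upper-quartile scaling and without Col-0 replicate 2 or pp2-a5 replicate 1. GSTF8 has 2 annotated transcripts and overlaps a gene on its own strand, so its level is less certain.

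GSTF10 (AT2G30870, chr2:13141290-13142676), a dehydration-induced phi gene placed with GSTF9 in glucosinolate synthesis, had 83.4, 80.03 and 90.4 CPM in PP2-A5oe plants, 107, 92.4 and 97.7 CPM in pp2-a5 plants, and 63.2, 56.8 and 64.1 CPM in Col-0. Every library of either line lay above every Col-0 library. On the log2 scale, the change against Col-0 was 0.46 ± 0.08 in PP2-A5oe (adjusted p = 4.07e-05) and 0.69 ± 0.08 for pp2-a5 (adjusted p = 3.73e-08).

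The remaining tested phi genes did not follow this pattern. GSTF11 was at low levels and was named after its values were seen; it is placed in aliphatic glucosinolate synthesis. It had 2.49, 1.98 and 1.90 CPM in PP2-A5oe plants, 0.649, 0.827 and 1.09 CPM in pp2-a5 plants, and 2.42, 2.01 and 2.43 CPM in Col-0. It was lower in pp2-a5 by a log2 fold change of -1.39 ± 0.39 (adjusted p = 0.00898), with pp2-a5 below both other groups, and stood at -0.10 ± 0.32 in PP2-A5oe (adjusted p = 0.87). Only 16 counts lay behind the pp2-a5 value, and DESeq2 did not call GSTF11. GSTF12, which carries anthocyanins to the vacuole, stood at -0.25 ± 0.16 in PP2-A5oe and -0.29 ± 0.16 in pp2-a5 and was called in neither. Its libraries of both lines lay below all of Col-0, by a narrow margin in PP2-A5oe (10.03 CPM in replicate 3 against 10.05 CPM in Col-0 replicate 2).

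**Figure D2:**
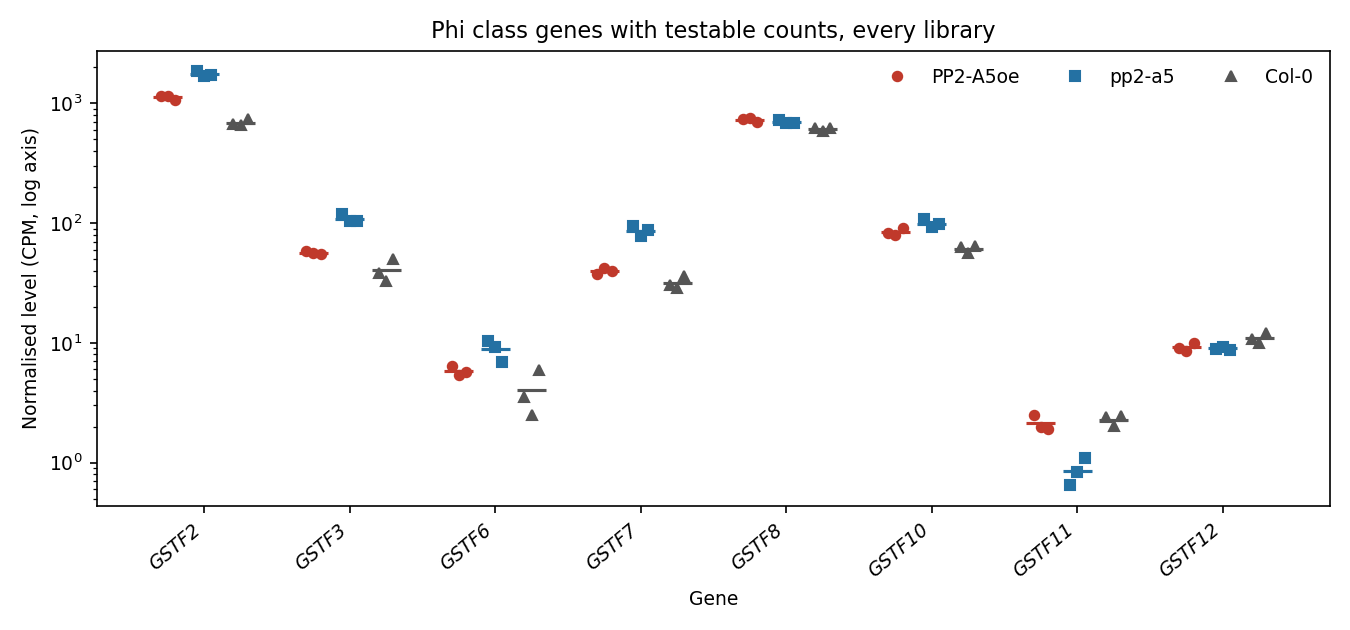
Normalised level (CPM, log axis) of the 8 tested phi genes in every library of PP2-A5oe (circles), pp2-a5 (squares) and Col-0 (triangles), with a line at each group mean. GSTF2, GSTF3 and GSTF7 form 3 separate steps with pp2-a5 on top, whereas GSTF11 is lowest in pp2-a5.

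Promoters are shown for the 3 phi genes that were called higher in both lines and also called between the lines, so that members of like response can be compared by sequence. They are GSTF2 (chr4:1112034-1112283), GSTF3 (chr2:852322-852571) and GSTF7 (chr1:659981-660230), each 250 bases before the annotated start on the minus strand, printed 5′ to 3′ along the gene from the RefSeq genome of build TAIR10.1. Capitals mark TGACG, the core of sites bound by TGA factors, and TTGAC, the core of the W box bound by WRKY factors, on either strand (CGTCA and GTCAA on the other strand).
GSTF2: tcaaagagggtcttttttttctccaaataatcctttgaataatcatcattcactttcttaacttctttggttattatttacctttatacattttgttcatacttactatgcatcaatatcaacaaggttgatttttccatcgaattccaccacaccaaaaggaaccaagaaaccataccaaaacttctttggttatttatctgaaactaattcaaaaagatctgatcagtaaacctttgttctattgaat
GSTF3: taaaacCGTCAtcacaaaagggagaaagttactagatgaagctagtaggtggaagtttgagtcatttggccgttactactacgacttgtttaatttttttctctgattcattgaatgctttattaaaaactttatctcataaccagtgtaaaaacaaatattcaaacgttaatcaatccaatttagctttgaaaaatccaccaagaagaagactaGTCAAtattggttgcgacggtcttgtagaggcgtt
GSTF7: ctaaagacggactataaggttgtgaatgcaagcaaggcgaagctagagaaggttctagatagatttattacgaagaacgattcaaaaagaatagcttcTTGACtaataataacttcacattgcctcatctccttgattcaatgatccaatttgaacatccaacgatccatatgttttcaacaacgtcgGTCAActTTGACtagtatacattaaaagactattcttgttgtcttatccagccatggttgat
GSTF7 held 3 matches of TTGAC and 0 of TGACG, GSTF3 held 1 of each, and GSTF2 held neither in these 250 bases. Such a match is a string of letters and not a measured binding site. Whether matches go with the response of a gene was not tested. TGACG occurred in 32.0% of the 50 members' promoters and in 18.6% of 27443 promoters of protein-coding genes. TTGAC occurred in 60.0% of the members' promoters and in 44.9% of all, and a TTGACG string counts for both motifs. The G box CACGTG was present in 12% of members and 6.49% of all, and GCCGCC in 6.0% of members and 1.87% of all.

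Tau genes moved in both directions. Of 20 tested, 4 were higher and 10 lower in PP2-A5oe, against 14.5% and 10.5% of all tested loci. In pp2-a5, 4 were higher and 5 lower, against 12.3% and 8.47% of all tested loci. The lower calls in PP2-A5oe numbered 6 with DESeq2 and 6 without Col-0 replicate 1, PP2-A5oe replicate 1 or PP2-A5oe replicate 2. Those in pp2-a5 numbered 2 without Col-0 replicate 3 and 3 without pp2-a5 replicate 2. Their summed levels lay close together, at 1003 ± 18.4 CPM in PP2-A5oe, 983 ± 47.4 CPM in pp2-a5 and 1041 ± 62.2 CPM in Col-0 (SD, n = 3 each). Over all members, the sum was 3597 ± 103 CPM in PP2-A5oe, 4262 ± 169 CPM in pp2-a5 and 3058 ± 154 CPM in Col-0. With GSTF2 and GSTF8 left out, the remaining 44 summed to 1737 ± 31.9 CPM in PP2-A5oe, 1807 ± 68.6 CPM in pp2-a5 and 1756 ± 102 CPM in Col-0, and the ranges of the 3 groups overlapped.

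**Figure D3:**
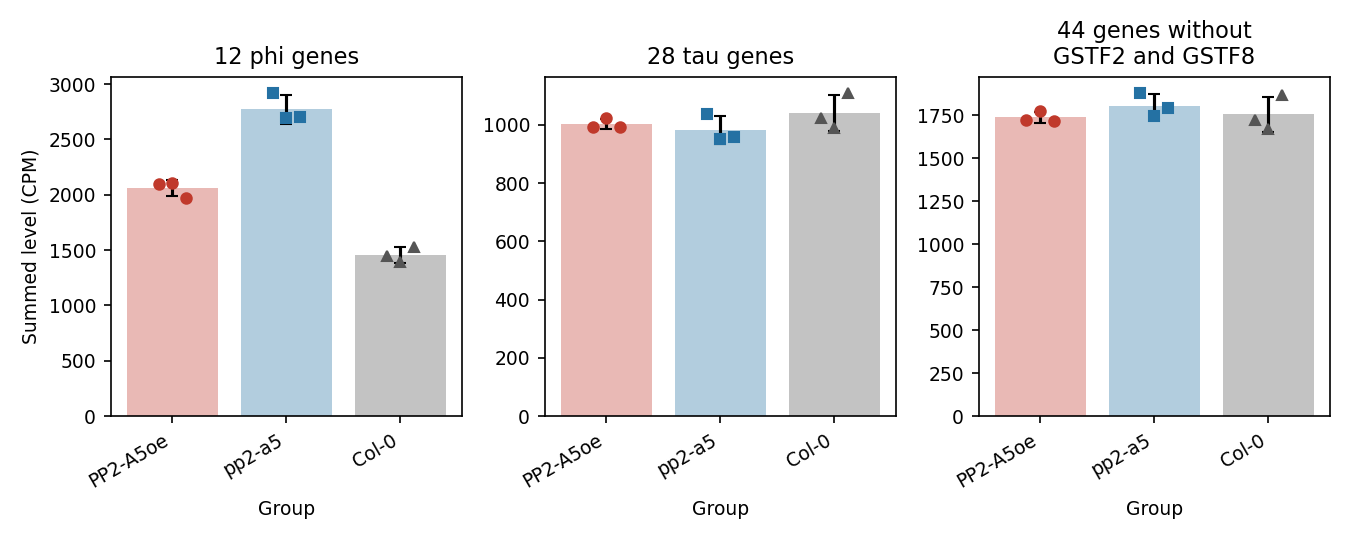
Summed level (CPM, axes from 0) of the phi genes, the tau genes and all members without GSTF2 and GSTF8 in PP2-A5oe, pp2-a5 and Col-0, with bars at the mean, error bars of 1 SD (n = 3) and a point per library. The phi sums stand apart in the 3 groups, with pp2-a5 highest, while the other sums overlap.

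The steepest falls were in PP2-A5oe at GSTU3 and GSTU11. GSTU3 (AT2G29470, chr2:12628422-12629640) had 0.663, 0.541 and 0.864 CPM in PP2-A5oe plants, 3.57, 2.65 and 2.19 CPM in pp2-a5 plants, and 6.29, 4.69 and 6.91 CPM in Col-0, which are 12, 52 and 104 counts over the 3 libraries of each group. The 3 groups did not overlap, with PP2-A5oe lowest and pp2-a5 between. The change against Col-0 was, on the log2 scale, -3.07 ± 0.35 in PP2-A5oe (adjusted p = 1.31e-08) and -1.08 ± 0.25 for pp2-a5 (adjusted p = 0.00149), and the lines differed by -1.98 ± 0.41 (adjusted p = 0.000544).

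GSTU11 (AT1G69930, chr1:26337481-26338818) had 1.33, 1.80 and 0.864 CPM in PP2-A5oe plants, 8.11, 8.27 and 4.69 CPM in pp2-a5 plants, and 7.74, 9.71 and 10.1 CPM in Col-0. PP2-A5oe lay below both other groups, which overlapped each other. On the log2 scale it stood at -2.77 ± 0.29 in PP2-A5oe (adjusted p = 2.54e-09) and -0.39 ± 0.20 for pp2-a5, which did not pass (adjusted p = 0.185), with -2.38 ± 0.31 between the lines (adjusted p = 2.84e-07). Its neighbour GSTU12 had too few counts for a test, with 7 in PP2-A5oe, 19 in pp2-a5 and 7 in Col-0. All 7 counts in PP2-A5oe came from replicate 1.

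GSTU4 (AT2G29460, chr2:12626478-12627891), an enzyme reported with those of camalexin synthesis, had 5.14, 4.33 and 4.15 CPM in PP2-A5oe plants, 15.4, 10.9 and 12.97 CPM in pp2-a5 plants, and 7.09, 7.20 and 8.59 CPM in Col-0. PP2-A5oe lay wholly below Col-0 and pp2-a5 wholly above it. As a log2 fold change this was -0.74 ± 0.21 in PP2-A5oe (adjusted p = 0.00826) and 0.79 ± 0.17 for pp2-a5 (adjusted p = 0.000576), and the difference between the lines was -1.52 ± 0.19 (adjusted p = 1.23e-07). The call in PP2-A5oe was lost without Col-0 replicate 3 and PP2-A5oe replicate 2 together, at -0.61 (adjusted p = 0.0791).

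The promoters of these 3 genes, the tau genes furthest apart between the lines, are given in the same way, for GSTU3 (chr2:12629641-12629890), GSTU11 (chr1:26338819-26339068) and GSTU4 (chr2:12627892-12628141), all on the minus strand.
GSTU3: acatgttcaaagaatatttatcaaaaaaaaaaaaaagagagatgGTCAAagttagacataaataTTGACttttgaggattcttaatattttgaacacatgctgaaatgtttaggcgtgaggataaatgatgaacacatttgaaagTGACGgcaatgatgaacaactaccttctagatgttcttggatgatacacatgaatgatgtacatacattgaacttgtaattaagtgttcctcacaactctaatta
GSTU11: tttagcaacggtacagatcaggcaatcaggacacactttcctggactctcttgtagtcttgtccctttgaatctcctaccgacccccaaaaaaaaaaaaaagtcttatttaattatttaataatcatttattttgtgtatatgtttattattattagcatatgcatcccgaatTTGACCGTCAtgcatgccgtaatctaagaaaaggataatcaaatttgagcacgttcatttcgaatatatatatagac
GSTU4: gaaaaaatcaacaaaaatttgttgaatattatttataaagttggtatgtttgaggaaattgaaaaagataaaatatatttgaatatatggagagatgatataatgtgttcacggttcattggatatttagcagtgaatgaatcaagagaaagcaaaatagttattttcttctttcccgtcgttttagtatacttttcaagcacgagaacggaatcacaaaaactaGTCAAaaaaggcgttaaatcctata
GSTU3 held 1 match of TGACG and 2 of TTGAC, GSTU11 held 1 of each side by side, and GSTU4 held 1 of TTGAC.

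GSTU20 and GSTU19 were lower in both lines. GSTU20 (AT1G78370, chr1:29484120-29485389) acts with a jasmonate-conjugating enzyme in light and jasmonate signalling and is also placed in aliphatic glucosinolate synthesis. It had 86.5, 91.0 and 83.7 CPM in PP2-A5oe plants, 70.9, 68.8 and 63.6 CPM in pp2-a5 plants, and 126, 128 and 144 CPM in Col-0. The groups did not overlap, with pp2-a5 lowest, and the log2 fold change came to -0.61 ± 0.07 in PP2-A5oe (adjusted p = 6.3e-08) and -0.97 ± 0.08 for pp2-a5 (adjusted p = 4.12e-12). PP2-A5oe was above pp2-a5 by 0.36 ± 0.08 (adjusted p = 0.000896).

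GSTU19 (AT1G78380, chr1:29486387-29488007), a main conjugating enzyme of xenobiotics, was among the 5 members with the highest level per exon length. It had 145, 147 and 149 CPM in PP2-A5oe plants, 164, 160 and 155 CPM in pp2-a5 plants, and 182, 173 and 201 CPM in Col-0. Both lines lay below Col-0, by -0.34 ± 0.07 in PP2-A5oe (adjusted p = 0.000172) and -0.22 ± 0.07 for pp2-a5 (adjusted p = 0.015). The call in pp2-a5 was lost without Col-0 replicate 3, pp2-a5 replicate 2 or pp2-a5 replicate 3, with an adjusted p of at most 0.0732. At GSTU23 in the same cluster, which has 2 annotated transcripts, neither line was called.

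GSTU17 and GSTU18 overlap each other on the same strand and differed in direction in PP2-A5oe. GSTU17 (AT1G10370, chr1:3396883-3398358), which modulates light and abscisic acid responses, had 99.9, 98.8 and 94.2 CPM in PP2-A5oe plants, 78.7, 72.7 and 75.7 CPM in pp2-a5 plants, and 59.8, 60.6 and 61.4 CPM in Col-0. The groups did not overlap, with PP2-A5oe highest. Against Col-0, the log2 fold change came to 0.69 ± 0.08 in PP2-A5oe (adjusted p = 6.98e-09) and 0.32 ± 0.08 for pp2-a5 (adjusted p = 0.00213), and the lines differed by 0.37 ± 0.07 (adjusted p = 0.000422).

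GSTU18 (AT1G10360, chr1:3395551-3396953) had 128, 128 and 124 CPM in PP2-A5oe plants, 130, 127 and 125 CPM in pp2-a5 plants, and 144, 137 and 149 CPM in Col-0. Both lines lay below Col-0, at -0.18 ± 0.06 in PP2-A5oe (adjusted p = 0.0443) and -0.17 ± 0.06 for pp2-a5, which did not pass (adjusted p = 0.0586). The call in PP2-A5oe was lost in 12 of 20 alternative settings. The proteins of this pair are 74.9% identical, and reads in the overlap could have been counted for either gene.

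GSTU13 (AT1G27130, chr1:9425280-9426897), an enzyme of the pathogen-triggered metabolism of indole glucosinolates, had 115, 122 and 111 CPM in PP2-A5oe plants, 132, 116 and 114 CPM in pp2-a5 plants, and 92.6, 92.1 and 99.0 CPM in Col-0. Both lines lay above Col-0 and overlapped each other, with a log2 fold change of 0.29 ± 0.07 in PP2-A5oe (adjusted p = 0.0025) and 0.35 ± 0.07 for pp2-a5 (adjusted p = 0.000414). GSTU16 and GSTU27 were called higher in PP2-A5oe, each at 0.27, and stood at 0.13 and 0.15 in pp2-a5, where neither was called. GSTU8 was called higher in pp2-a5, at 0.74 ± 0.17, and stood at 0.19 ± 0.19 in PP2-A5oe.

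Further falls in PP2-A5oe were at GSTU10 (-0.59 ± 0.21) and at GSTU24 (-0.52 ± 0.16), a gene induced by xenobiotics. In pp2-a5 they stood at 0.12 ± 0.19 and 0.03 ± 0.15, and both were called lower in PP2-A5oe than in pp2-a5. DESeq2 called neither of them in PP2-A5oe, against Col-0 or against pp2-a5. Both calls against Col-0 were lost without Col-0 replicate 1, PP2-A5oe replicate 1 or PP2-A5oe replicate 2. Without Col-0 replicate 2 GSTU10 lost that call, and without Col-0 replicate 3 GSTU24 did. GSTU10 overlaps annotated genes on both strands. Both calls between the lines were also lost without PP2-A5oe replicate 1, PP2-A5oe replicate 2 or pp2-a5 replicate 3. Without pp2-a5 replicate 1, the call between the lines was lost at GSTU24 and kept at GSTU10. The tau genes GSTU5, GSTU23, GSTU25, GSTU26 and GSTU28 were called in neither line.

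**Figure D4:**
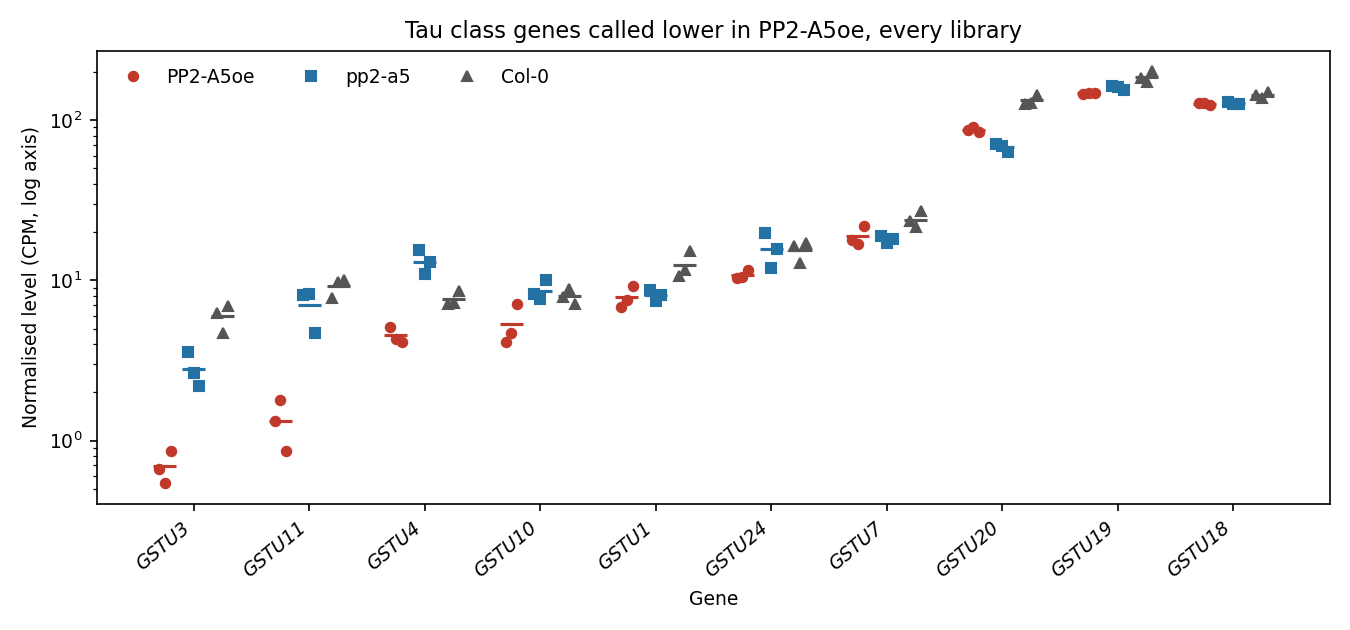
Normalised level (CPM, log axis) of the 10 tau genes called lower in PP2-A5oe, in every library of PP2-A5oe (circles), pp2-a5 (squares) and Col-0 (triangles), with a line at each group mean. GSTU3 and GSTU11 show the widest gap below Col-0, and GSTU4 has pp2-a5 above Col-0.

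Most tau genes and part of the phi genes stand in tandem clusters, rows of neighbouring copies. Of 20 tested members in such clusters, 5 were higher and 9 lower in PP2-A5oe, and 6 were higher and 5 lower in pp2-a5. Of 13 tested members outside clusters, 4 were higher and 1 lower in PP2-A5oe, and 4 were higher and 2 lower in pp2-a5. Among loci at or above the members' median level, 39.2% were called in PP2-A5oe and 33.1% in pp2-a5. Whether members inside and outside clusters differ was not tested. Without Col-0 replicate 3 the cluster counts were 6 higher and 6 lower in PP2-A5oe, and 6 higher and 2 lower in pp2-a5. Without PP2-A5oe replicate 2 as well, they were 6 higher and 4 lower in PP2-A5oe. In pp2-a5, 3 were lower without pp2-a5 replicate 2. In PP2-A5oe, 6 were lower with DESeq2 and without Col-0 replicate 1, PP2-A5oe replicate 1 or PP2-A5oe replicate 2, and 3 were higher without Col-0 replicate 2. Outside clusters, DESeq2 called 0 lower in PP2-A5oe. The cluster from GSTU1 to GSTU7 held genes called in opposite directions in pp2-a5, where GSTU4 was higher and GSTU1, GSTU3 and GSTU7 were lower. In PP2-A5oe, 4 of its 5 tested genes were lower and none was higher.

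GSTU5 (AT2G29450, chr2:12624403-12625790) was the most abundant gene of that cluster and was called in neither line. It had 120, 132 and 132 CPM in PP2-A5oe plants, 134, 118 and 120 CPM in pp2-a5 plants, and 130, 120 and 137 CPM in Col-0. The groups overlapped throughout, at -0.01 ± 0.07 in PP2-A5oe (adjusted p = 0.954) and -0.05 ± 0.07 for pp2-a5 (adjusted p = 0.665).

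GSTU1 (AT2G29490, chr2:12631341-12632538) had 6.80, 7.57 and 9.16 CPM in PP2-A5oe plants, 8.76, 7.44 and 8.13 CPM in pp2-a5 plants, and 10.6, 11.6 and 15.1 CPM in Col-0. Both lines lay below Col-0, at -0.66 ± 0.17 in PP2-A5oe (adjusted p = 0.00426) and -0.61 ± 0.17 for pp2-a5 (adjusted p = 0.0084). The call in pp2-a5 was lost without Col-0 replicate 3 (adjusted p = 0.0668), and the one in PP2-A5oe without that library and PP2-A5oe replicate 2 together (adjusted p = 0.0893). GSTU2, the member most like GSTU1 with 81.3% identity, had 9 counts in PP2-A5oe, 8 in pp2-a5 and 21 in Col-0 and could not be tested.

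GSTU7 (AT2G29420, chr2:12617936-12618899) had 17.7, 16.9 and 21.8 CPM in PP2-A5oe plants, 18.8, 17.03 and 18.1 CPM in pp2-a5 plants, and 23.5, 21.4 and 26.9 CPM in Col-0. The pp2-a5 libraries lay below Col-0, whereas 1 PP2-A5oe library lay within the Col-0 range. On the log2 scale, the difference from Col-0 was -0.34 ± 0.12 in PP2-A5oe (adjusted p = 0.0367) and -0.41 ± 0.12 for pp2-a5 (adjusted p = 0.0143), and DESeq2 called neither. Without Col-0 replicate 3 neither call held, at -0.25 in PP2-A5oe and -0.32 in pp2-a5. GSTU7 overlaps genes on the other strand.

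Summed over the cluster from GSTU1 to GSTU7, in which GSTU5 predominated, the level was 162 ± 8.62 CPM in PP2-A5oe, 168 ± 12.99 CPM in pp2-a5 and 182 ± 14.9 CPM in Col-0 (SD, n = 3 each), with overlapping ranges. The cluster from GSTU19 to GSTU23 summed to 240 ± 2.55 CPM in PP2-A5oe, 233 ± 9.12 CPM in pp2-a5 and 323 ± 23.2 CPM in Col-0, and both lines lay below Col-0. The cluster from GSTF4 to GSTF7 summed to 46.5 ± 1.64 CPM in PP2-A5oe, 96.9 ± 9.47 CPM in pp2-a5 and 36.8 ± 5.53 CPM in Col-0. In each cluster the sum does not depend on how reads were divided among neighbouring copies.

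Genes beside the clusters that are no glutathione transferases were counted in the same way. Over all tested loci, 25.0% were called in PP2-A5oe and 20.8% in pp2-a5. Around GSTU1 to GSTU7, 3 other genes could be tested; in PP2-A5oe 2 were higher and 1 lower, and in pp2-a5 0 were called by edgeR, DESeq2 or limma-voom, with 1 lower at an unadjusted p under 0.05. Around GSTU19 to GSTU23, 1 of 6 was higher in PP2-A5oe and 2 of 6 were higher in pp2-a5. Around GSTF4 to GSTF7, 0 of 4 were called in either line by edgeR, DESeq2 or limma-voom, and 0 had an unadjusted p under 0.05.

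**Figure D5:**
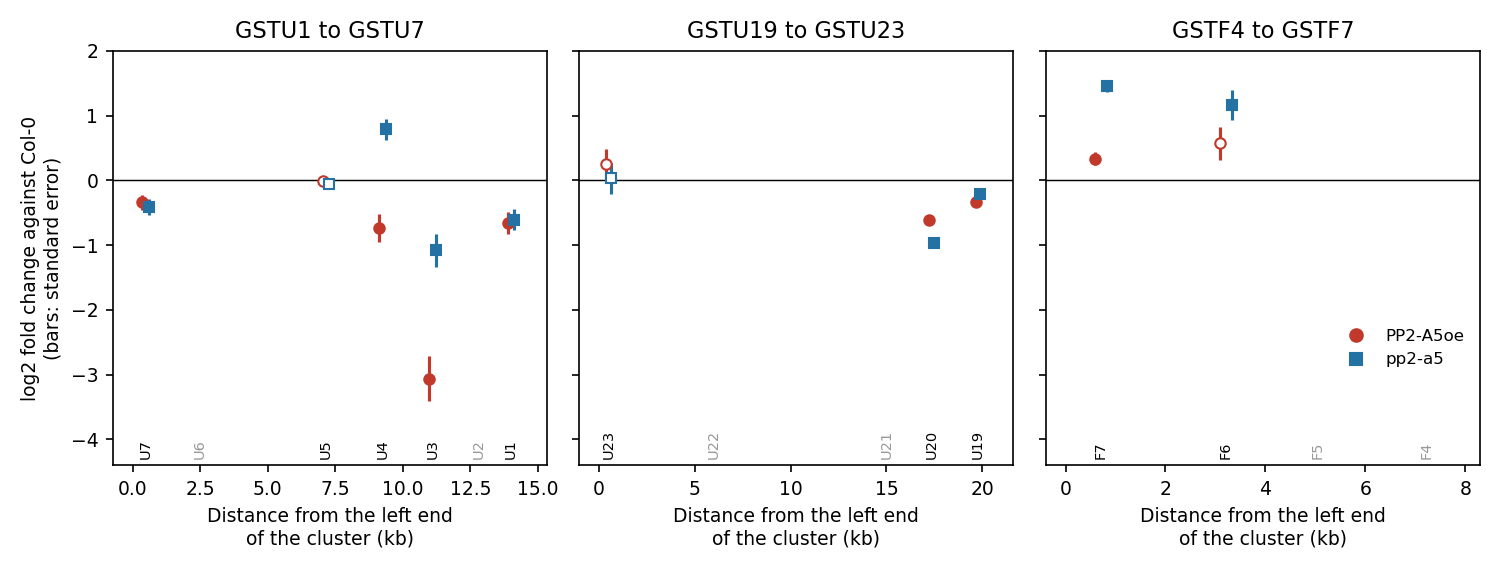
Log2 fold change against Col-0 (y axis, bars of 1 standard error, open symbols where not called) at the position of each gene in 3 tandem clusters (x axis, kb from the left end; symbols shifted apart slightly), for PP2-A5oe (circles) and pp2-a5 (squares). Grey names mark genes with too few counts for a test; GSTU4 is the 1 gene with symbols well apart on opposite sides of 0.

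Outside the tau and phi classes, called differences were few. DHAR3 (AT5G16710, chr5:5483260-5485185), the chloroplast dehydroascorbate reductase, had 208, 209 and 210 CPM in PP2-A5oe plants, 182, 188 and 196 CPM in pp2-a5 plants, and 229, 237 and 231 CPM in Col-0. The groups did not overlap, with pp2-a5 lowest and Col-0 highest. It was lower in pp2-a5 by a log2 fold change of -0.30 ± 0.06 (adjusted p = 0.000398) and stood at -0.15 ± 0.06 in PP2-A5oe, which did not pass (adjusted p = 0.0703). Upper-quartile scaling called it in PP2-A5oe as well, at -0.20. The cytosolic DHAR2 stood at 0.16 ± 0.09 in PP2-A5oe and 0.10 ± 0.09 in pp2-a5 and was called in neither.

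GSTL3 (AT5G02790, chr5:632796-635240), a lambda gene, had 158, 163 and 144 CPM in PP2-A5oe plants, 148, 150 and 167 CPM in pp2-a5 plants, and 158, 153 and 179 CPM in Col-0. The groups overlapped, at -0.07 ± 0.07 in PP2-A5oe (adjusted p = 0.496) and -0.08 ± 0.07 for pp2-a5 (adjusted p = 0.506). GSTL2 stood at 0.11 ± 0.08 in PP2-A5oe and -0.04 ± 0.08 in pp2-a5, and the theta gene GSTT1 at -0.18 ± 0.08 in PP2-A5oe and -0.07 ± 0.08 in pp2-a5, neither of them called in either line. By level per exon length over all 9 libraries, GSTF2 with 810 CPM per kb was followed by GSTF8 with 284, DHAR3 with 193, GSTU19 with 146 and GSTL3 with 135 CPM per kb.

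The 13 members that could not be tested had between 1 and 70 counts over the 9 libraries. They were GSTU2, GSTU6, GSTU9, GSTU12, GSTU14, GSTU15, GSTU21, GSTU22, GSTF4, GSTF5, GSTF13, GSTF14 and GSTZ2. GSTU6 had the most, with 26 counts in PP2-A5oe, 19 in pp2-a5 and 25 in Col-0, and GSTU9 and GSTF4 had 1 count each. Differences at these genes were not detectable at this depth.

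Genes that make, break down or use glutathione were read from lists of related pathways. Calls on these and the following lists stand beside 25.0% of all tested loci called in PP2-A5oe and 20.8% in pp2-a5. Among loci at or above the members' median level, the shares were 39.2% and 33.1%. Whether any list differs from these shares was not tested. Of 8 tested genes of glutathione synthesis and turnover, 2 were higher and 1 lower in each line (37.5% called). GGCT2;1, a cyclotransferase that degrades glutathione, averaged 50.3 CPM in PP2-A5oe, 29.5 CPM in pp2-a5 and 15.9 CPM in Col-0, and rose by 1.66 ± 0.11 in PP2-A5oe (adjusted p = 9.17e-15) and 0.89 ± 0.11 for pp2-a5 (adjusted p = 1.7e-07). The phytochelatin synthase gene PCS1 rose by 0.56 ± 0.08 in PP2-A5oe and 0.83 ± 0.08 in pp2-a5. GGCT2;2, another cyclotransferase gene, fell, at -0.44 ± 0.07 in PP2-A5oe and -0.52 ± 0.07 in pp2-a5.

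Of 6 tested glutathione peroxidase-like genes, 2 were higher in each line. None was lower by edgeR, DESeq2 or limma-voom, with 1 lower in each line at an unadjusted p under 0.05. The chloroplast gene GPX7 averaged 34.7 CPM in PP2-A5oe, 25.4 CPM in pp2-a5 and 14.04 CPM in Col-0, and rose by 1.31 ± 0.11 in PP2-A5oe and 0.86 ± 0.12 in pp2-a5. GPX1 was called in PP2-A5oe, at 0.23 ± 0.06, and GPX5 in pp2-a5, at 0.29 ± 0.09, which DESeq2 did not call (adjusted p = 0.079). The 1 tested vacuolar transporter of glutathione conjugates, ABCC4, was higher in pp2-a5, at 0.28 ± 0.07, and stood at 0.15 ± 0.07 in PP2-A5oe. Of 4 tested genes of ascorbate recycling, 2 were higher in PP2-A5oe, while 1 was higher and 1 lower in pp2-a5. The monodehydroascorbate reductase gene MDAR2 rose by 0.56 ± 0.09 in PP2-A5oe and 0.86 ± 0.09 in pp2-a5, and MDAR4 rose in PP2-A5oe by 0.35 ± 0.06. The thylakoid ascorbate peroxidase gene tAPX was lower in pp2-a5, at -0.25 ± 0.07.

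TGA factors and their partner SCL14 switch on a set of detoxification genes. Of 9 tested genes on that list, 2 were higher and 1 lower in PP2-A5oe, and 5 were higher and 2 lower in pp2-a5. DESeq2 called 1 higher and 0 lower in PP2-A5oe. DTX1, a multidrug efflux transporter, rose by 0.66 ± 0.25 in PP2-A5oe (adjusted p = 0.0496) and 1.68 ± 0.21 for pp2-a5 (adjusted p = 1.7e-07). The cytochrome P450 gene CYP81D8 was lower in PP2-A5oe, at -0.39 ± 0.13, and higher in pp2-a5, at 0.55 ± 0.12, with -0.94 ± 0.12 between the lines (adjusted p = 5.07e-07). CYP81D11, of the same P450 family, stood at 0.05 ± 0.08 in PP2-A5oe and was lower in pp2-a5, at -0.80 ± 0.08. The glycosyltransferase gene UGT74E2 was higher in pp2-a5, at 0.68 ± 0.12, and the transcription factor gene ANAC032 was higher in both lines, at 0.82 ± 0.09 in PP2-A5oe and 0.27 ± 0.09 in pp2-a5.

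Glucosinolate and camalexin genes, whose pathways use glutathione as the sulfur donor, were counted separately for each branch, and both branches held calls in both directions. Of 9 tested aliphatic genes, 1 was higher and 4 were lower in each line. MYB29, a regulator of that branch, was lower at -0.70 ± 0.11 in PP2-A5oe and -1.54 ± 0.13 in pp2-a5, and the enzyme genes CYP83A1 and CYP79F1 were lower in both lines. GGP1, a peptidase that removes the glutamyl residue of the glutathione conjugate, was higher, at 0.56 ± 0.07 in PP2-A5oe and 0.38 ± 0.07 in pp2-a5. Of 9 tested indolic and camalexin genes, 2 were higher and 3 lower in PP2-A5oe, and 3 were higher and 1 lower in pp2-a5. CYP83B1, which commits indole compounds to glucosinolates, averaged 593 CPM in PP2-A5oe, 654 CPM in pp2-a5 and 375 CPM in Col-0, and rose by 0.66 ± 0.06 in PP2-A5oe and 0.80 ± 0.06 in pp2-a5. The sulfotransferase gene SOT16 rose by 0.69 ± 0.07 in PP2-A5oe and 0.53 ± 0.07 in pp2-a5.

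Of the camalexin enzymes, CYP71A12 was lower in PP2-A5oe, at -1.25 ± 0.15 (adjusted p = 4.31e-08), and higher in pp2-a5, at 0.71 ± 0.12 (adjusted p = 1.41e-05). Its neighbour CYP71A13 was lower in both lines, at -0.29 ± 0.09 in PP2-A5oe and -1.41 ± 0.10 in pp2-a5. These are close copies, so the division of reads between them is uncertain. PAD3, which closes the camalexin ring and was named after its values were seen, was lower in PP2-A5oe, at -1.19 ± 0.20 (adjusted p = 2.42e-05), and stood at 0.38 ± 0.16 in pp2-a5, which did not pass (adjusted p = 0.0915). Of 8 tested anthocyanin genes, 4 were higher and 1 lower in PP2-A5oe, and 3 were higher and 1 lower in pp2-a5. DESeq2 called 3 higher and 0 lower in PP2-A5oe, and 2 higher and 0 lower in pp2-a5. The lower call in PP2-A5oe was not made by limma-voom either. The glucosyltransferase gene UGT78D2 rose by 0.79 ± 0.07 in PP2-A5oe and 0.31 ± 0.07 in pp2-a5, and the chalcone isomerase gene CHI by 0.72 ± 0.09 in PP2-A5oe and 0.58 ± 0.09 in pp2-a5. The regulator PAP1 rose by 0.42 ± 0.12 in PP2-A5oe, and UGT79B1, another glycosyltransferase gene, was lower in pp2-a5, at -0.55 ± 0.16. Of 4 tested glutathione transferase loci outside the 50, 0 were called in either line by edgeR, DESeq2 or limma-voom, with 1 lower in each line at an unadjusted p under 0.05. Of the related genes named, DESeq2 also left DTX1, CYP81D8 and CYP71A13 without a call in PP2-A5oe, and ANAC032 and UGT79B1 in pp2-a5.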

How the data were processed

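RNA of 9 rosette libraries was counted by the authors, who deposited a table of raw counts per locus made against TAIR10, per the submitters' processing notes; for the aligner, the counter, the gene models, the strand setting and the counting unit, nothing is given in the sources used here. It held 22449 entries for 22155 loci, and entries of the same locus (294 loci with 2) were summed. Genes with more annotated transcripts had lower counts where listed (median per library 64.4 with 1 transcript, 22.9 with 2 and 7.89 with 3 or more), which makes their values less certain. Names and positions came from TAIR10.1, which matched 21952 loci.

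Loci with low counts were removed with filterByExpr (minimum count 10, minimum total 15), which left 13975 loci with 99.76% of all counts. All libraries were fitted in 1 edgeR 4.0.16 quasi-likelihood model (R 4.3.3, TMM scaling, robust dispersions, a mean per group, 6 residual degrees of freedom), with Benjamini-Hochberg adjustment over all tested loci and calls at an adjusted p under 0.05. The biological coefficient of variation was 6.89%. The labels call the libraries of each group biological replicates but do not say how the plants were grown or pooled. A p-value here therefore reflects the spread among these libraries alone. Level per length is CPM divided by annotated exon bases in kb. DESeq2 1.42.0, limma 3.58.1 (voom) and other filters, scalings and libraries were alternatives. Plots used Python 3.11.15 with matplotlib 3.10.9, and sequences were read with pysam 0.24.0.

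The members, the lists of related genes and the tests were chosen with earlier results of these data known. By rule, values in every library are given for the 8 called members with the smallest adjusted p in each comparison, for all tested members of a tandem cluster called in both directions in 1 comparison, and for the 5 members of highest level per exon length; from each related list up to 3 called genes per line are named.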

Additional observations from a re-analysis of the deposited data

Results flagged for a closer look

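GSTU4 was called in opposite directions in the lines, at -0.74 in PP2-A5oe and 0.79 in pp2-a5 against Col-0, and the difference itself was called, at -1.52 (log2 fold change, PP2-A5oe minus pp2-a5, edgeR adjusted p = 1.23e-07). All 3 PP2-A5oe libraries lay below and all 3 pp2-a5 libraries above those of Col-0.

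CYP71A12, an enzyme gene of camalexin synthesis, also moved in opposite directions, with a difference of -1.96 (edgeR adjusted p = 2.59e-13). CYP81D8, a detoxification gene, did so with a difference of -0.94 (edgeR adjusted p = 5.07e-07). Its fall of -0.39 in PP2-A5oe was called by edgeR and not by DESeq2 (adjusted p = 0.103), while DESeq2 called the difference between the lines.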

How the results depend on the processing

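No called direction among the 19 genes given per library reversed in 20 alternative settings. Of their recomputed fold changes, 1073 stayed on their side of the threshold, 37 lost their call and 21 gained one; GSTU18 in PP2-A5oe lost its call in 12 settings. The count of members called lower in PP2-A5oe, 10, became 6 with DESeq2 and 4 without Col-0 replicate 3 and PP2-A5oe replicate 2, the libraries of highest mitochondrial share, an alternative chosen after seeing the data. Without the same libraries the count called lower in pp2-a5, 7, became 4. Leaving out each library in turn gave 7 to 10 higher and 6 to 10 lower in PP2-A5oe against Col-0, 9 to 11 higher and 4 to 8 lower in pp2-a5 against Col-0, and 2 to 3 higher and 6 to 11 lower in PP2-A5oe against pp2-a5. The cause of these shifts was not tested. Counting only members with 1 annotated transcript, also chosen after seeing the data, gave 8 higher and 10 lower in PP2-A5oe and 8 higher and 7 lower in pp2-a5. Upper-quartile scaling called 9 higher and 12 lower in PP2-A5oe and 9 higher and 9 lower in pp2-a5, and moved the share of higher calls over all loci in PP2-A5oe to 46.1% instead of 58.0%. Replicate numbers did not pair the libraries: 0 of 9 same-number correlations exceeded 0.1 (range -0.18 to 0.0618), and with the replicate number as a block 9 instead of 10 members were called lower in PP2-A5oe, GSTU18 being the 1 lost, with no other change among members. Depth limits the members with few counts, such as GSTU3 in PP2-A5oe with 12.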
